A study of Arabidopsis thaliana with 20 samples.

Results

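A set of 43 genes of the plant cell division cycle was followed in shoots of *Arabidopsis thaliana* lines with autoimmunity, plants whose immune receptors are active without a pathogen. They were taken as every row of the count table whose identifier belonged to the CYCA, CYCB or CYCD cyclins, the CDKA or CDKB kinases, MCM2 to MCM7, PCNA1 and PCNA2, CDC6, CDT1A or KNOLLE of the member list. All 43 were found among 32833 genes and all 43 were among the 23349 genes tested. By role, 10 were G1 cyclins (CYCD), 13 were S phase genes (CYCA3, MCM, PCNA, CDC6, CDT1A), 19 were mitotic genes (CYCA1, CYCA2, CYCB, CDKB, KNOLLE) and 1 was CDKA;1, which acts throughout the cycle.

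RNA of aerial tissue was sequenced in 20 libraries of 7 groups. DM1-DM2d plants (3 libraries, 12 days after sowing, DAS) were set against wild-type Col-0 plants of the same age (2 libraries), and DM6-DM7 plants (3 libraries, 14 DAS) against Col-0 plants of that age (3 libraries). DM lines were Col-0 plants transformed with constructs that carry a pair of DANGEROUS MIX genes, loci whose natural alleles cause hybrid necrosis when combined. The other groups carried CRISPR-Cas9 knockouts of the helper immune receptor genes ADR1, ADR1-L1 and ADR1-L2, here called adr1s: DM1-DM2d adr1s, DM6-DM7 adr1s and their common control Col-0 adr1s, with 3 libraries each and no age in their titles. The labels give batch 1 to the 12 DAS groups, batch 2 to the 14 DAS groups and batch 3 to the adr1s groups. Each DM group was therefore compared within its batch, whereas differences between batches cannot be told apart from batch. The number of independent transformants or edited lines behind a group was not given in the labels.

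Plant cells enter the cycle when D-type cyclins bind CDKA;1 and the complex phosphorylates the retinoblastoma protein RBR1, which frees E2F factors to switch on S phase genes. CDC6 and CDT1A load the MCM helicase onto replication origins, and PCNA is the sliding clamp of the replication forks. A- and B-type cyclins with the plant-specific CDKB kinases then drive mitosis, many of their genes being controlled by MYB3R factors through MSA promoter elements, and the syntaxin KNOLLE builds the new cell wall between daughter cells. In a growing shoot cells divide mainly in the shoot apex, young leaf primordia and the stomatal lineage, while mature leaf cells no longer divide.

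Promoter sequences are shown for 7 members because they differ in the words these factors are known to bind and because their transcripts differ in the results. They are the 250 bases before the annotated gene start in RefSeq TAIR10.1, 5′ to 3′ on the strand of the gene. Capitals mark the MSA core (AACGG on either strand) in the mitotic genes. The CYCB1;2 stretch is chr5:1861704-1861953, minus strand, that of CYCB1;1 is chr4:17624309-17624558, minus strand, that of CYCB2;2 is chr4:16901346-16901595, plus strand and that of CYCA1;1 is chr1:16777353-16777602, minus strand.
CYCB1;2: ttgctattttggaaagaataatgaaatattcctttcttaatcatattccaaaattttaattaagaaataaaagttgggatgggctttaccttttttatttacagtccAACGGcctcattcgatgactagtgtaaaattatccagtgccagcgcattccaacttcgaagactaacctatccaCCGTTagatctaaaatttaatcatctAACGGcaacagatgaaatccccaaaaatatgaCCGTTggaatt
CYCB1;1: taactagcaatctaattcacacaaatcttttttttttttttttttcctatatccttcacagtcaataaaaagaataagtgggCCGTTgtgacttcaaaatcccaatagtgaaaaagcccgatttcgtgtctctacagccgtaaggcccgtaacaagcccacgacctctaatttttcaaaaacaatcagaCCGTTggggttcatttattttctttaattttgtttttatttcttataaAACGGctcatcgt
CYCB2;2: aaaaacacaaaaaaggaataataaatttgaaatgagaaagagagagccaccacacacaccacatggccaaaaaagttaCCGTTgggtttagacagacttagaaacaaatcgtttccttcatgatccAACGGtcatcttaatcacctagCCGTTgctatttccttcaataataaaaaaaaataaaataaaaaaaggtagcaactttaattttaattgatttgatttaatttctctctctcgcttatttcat
CYCA1;1: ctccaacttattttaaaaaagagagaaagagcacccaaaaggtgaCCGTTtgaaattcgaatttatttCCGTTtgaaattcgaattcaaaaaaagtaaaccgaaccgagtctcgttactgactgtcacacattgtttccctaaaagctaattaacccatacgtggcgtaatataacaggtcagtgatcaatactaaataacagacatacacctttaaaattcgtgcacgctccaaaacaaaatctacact

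In the S phase genes, capitals mark an E2F word, TTTCCCGC, TTTGGCGC, TTTCGCGC or TTTGCCGC on either strand. The MCM2 stretch is chr1:16969964-16970213, plus strand, that of MCM4 is chr2:7130730-7130979, minus strand and that of MCM6 is chr5:18010668-18010917, minus strand.
MCM2: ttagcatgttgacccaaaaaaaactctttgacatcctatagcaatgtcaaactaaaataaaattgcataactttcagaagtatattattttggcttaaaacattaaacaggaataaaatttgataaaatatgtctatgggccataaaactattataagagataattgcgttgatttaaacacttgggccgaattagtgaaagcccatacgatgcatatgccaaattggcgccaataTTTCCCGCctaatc
MCM4: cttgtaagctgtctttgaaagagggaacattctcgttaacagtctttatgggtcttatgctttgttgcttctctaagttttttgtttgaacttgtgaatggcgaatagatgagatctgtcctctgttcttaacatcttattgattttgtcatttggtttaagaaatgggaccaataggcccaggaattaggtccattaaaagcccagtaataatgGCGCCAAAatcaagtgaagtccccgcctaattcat
MCM6: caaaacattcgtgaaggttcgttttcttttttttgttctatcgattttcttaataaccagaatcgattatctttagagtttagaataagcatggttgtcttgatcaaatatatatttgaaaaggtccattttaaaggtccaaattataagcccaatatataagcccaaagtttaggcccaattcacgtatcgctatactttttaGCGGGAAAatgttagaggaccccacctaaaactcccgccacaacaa

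In the window from 250 bases before to 50 after the gene start, 12 of 19 mitotic genes, 4 of 13 S phase genes and 1 of 10 G1 cyclin genes held the MSA core, against 24.7% of 27443 protein-coding promoters of the same length. CYCB1;2 held the most copies among the members, with 5, of which 4 lay before the start. An E2F word was present in 5 of 13 S phase genes (MCM2, MCM3, MCM4, MCM5 and MCM6), against 1.76% of all promoters. The site II words TGGGCC and TGGGCT, on either strand, were present in 8 of 13 S phase genes, 4 of 19 mitotic genes and 2 of 10 G1 cyclin genes, against 21.7% of all promoters. Over all members there was 1 overlap between matches of different kinds. CDKA;1 held none of these words. The matches are descriptions of the letters and were not tested for binding.

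**Figure D1:**
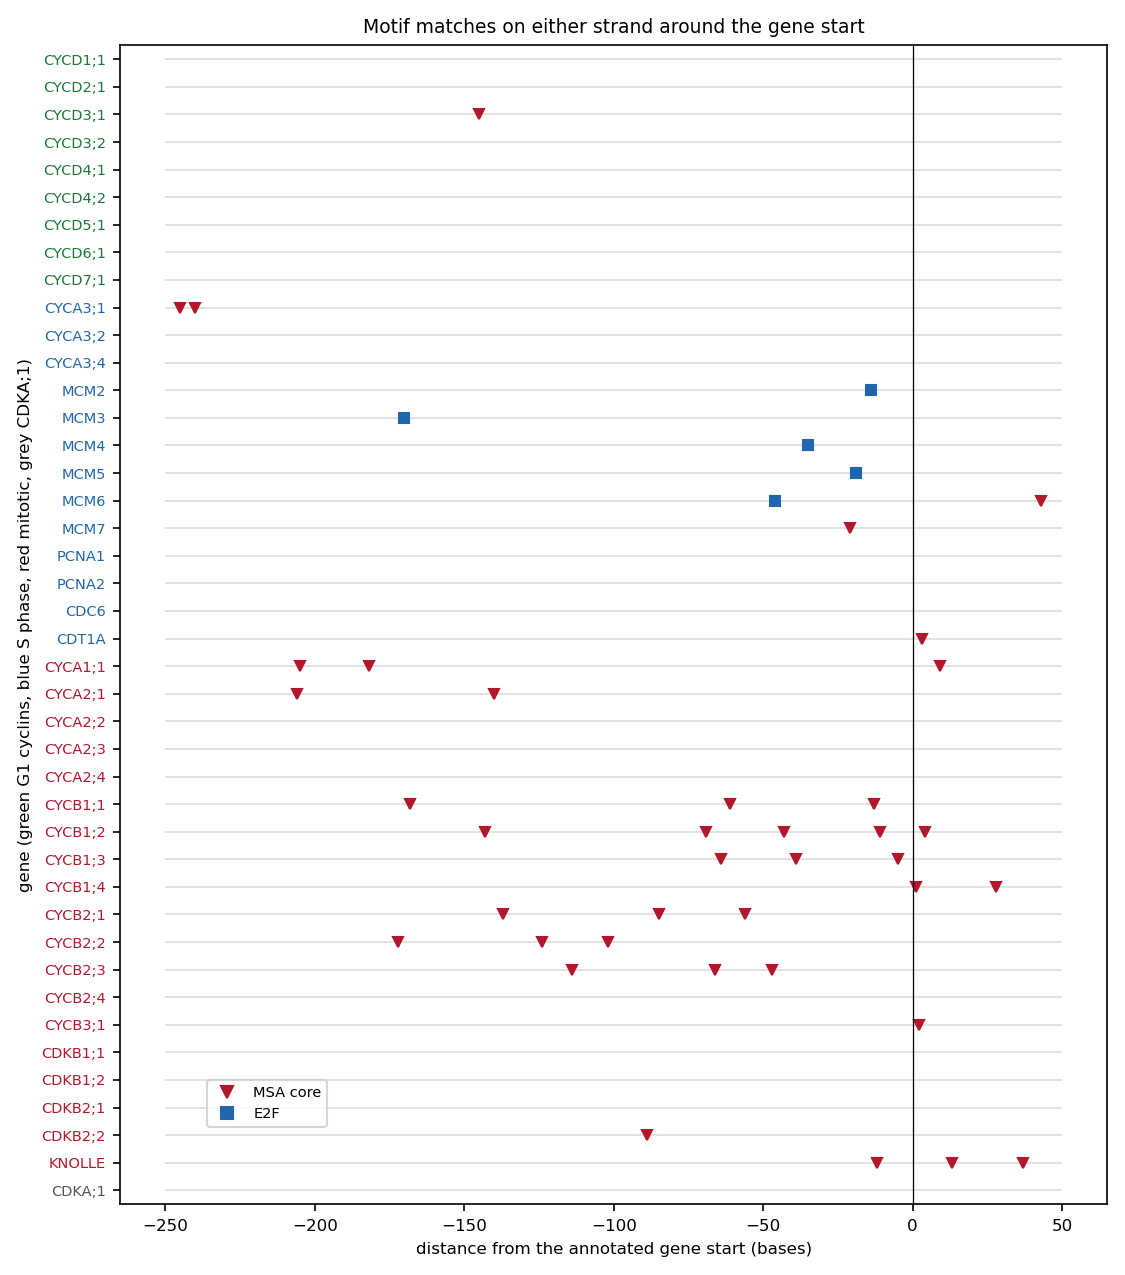
Positions of MSA core (red triangles) and E2F word (blue squares) matches on either strand for 42 genes (rows), with the distance in bases from the annotated gene start on the x axis. The red triangles lie mostly in the mitotic rows, 12 of 19, and the blue squares in the MCM rows.

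Library totals ran from 48360933 to 127276992 counts, so that 3 counts correspond to 0.024 to 0.0576 CPM (counts scaled to a library of 1000000 counts), a limit that covers counting error only. Plastid genes took 10.4 to 11.5% of counts in DM1-DM2d libraries and 41.8 to 42.2% in Col-0 12 DAS libraries, and at most 0.17% in each other library. In a fit of nuclear genes only, all 43 members kept their side of the threshold in each comparison. Beyond that fit, the part of this difference in library makeup in the results was not tested. Summed ADR1, ADR1-L1 and ADR1-L2 transcripts were still present in the adr1s groups (50.8 to 189 CPM), which does not check edits that leave the transcript in place. Leaf mesophyll markers summed to at least 1149 CPM in each library. Root markers summed to at most 1.42 CPM.

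In DM1-DM2d shoots nearly the whole set was lower than in Col-0 shoots of 12 DAS, and mitotic genes were lower by a wider margin than G1 and S phase genes. By edgeR's quasi-likelihood test with Benjamini-Hochberg adjustment over all genes tested, 38 of 43 members fell, 1 rose and 4 did not pass 0.05. Over all genes tested 36.4% fell and 36.6% rose in this comparison. The median log2 fold change was -2.05 over the members, against 0.0046 over all genes. At least 2-fold lower and past the threshold were 37 members, against 27.4% of all genes, and in 39 members every DM1-DM2d library lay below every Col-0 library, against 42.4% of all genes. The class medians were -1.40 for G1 cyclins, -1.55 for S phase genes and -2.95 for mitotic genes. This ordering of the classes is a description and was not tested.

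Among the G1 cyclins 7 of 10 fell. CYCD1;1 (AT1G70210), a D-type cyclin, stood at 0.557, 0.562 and 0.971 CPM in DM1-DM2d libraries and at 23.4 and 20.8 CPM in Col-0 12 DAS libraries, a log2 fold change of -4.98 ± 0.25 (SE, adjusted p = 8.07e-12, edgeR). CYCD4;1, known for pericycle divisions in roots, had 0.775, 0.655 and 0.743 CPM in DM1-DM2d and 7.14 and 7.24 CPM in Col-0 12 DAS. The DM1-DM2d libraries of both genes lay far below the Col-0 libraries, with no overlap. CYCD3;1, the cytokinin-responsive cyclin that limits entry into S phase, had 2.88, 2.25 and 3.01 CPM in DM1-DM2d, against 17.6 and 19.8 CPM in Col-0. CYCD3;2, its close relative, fell less in DM1-DM2d, with 10.4, 9.0 and 11.2 CPM against 31.9 and 29.8 CPM in Col-0 (log2 fold change -1.60 ± 0.096). The G1 cyclins were thus the most varied class, since CYCD2;1 (0.09 ± 0.10) and CYCD4;2 (0.36 ± 0.40) did not pass the threshold and neither did CYCD6;1 (-0.44 ± 0.28).

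All 13 S phase genes fell, within a narrow range of log2 fold changes from -2.06 to -1.08. The 6 subunits of the MCM helicase, which unwinds DNA at the fork, ranged from -2.06 (MCM6) to -1.19 (MCM5). MCM6 (AT5G44635, chromosome 5, 18006212 to 18010667) stood at 4.53, 3.84 and 4.06 CPM in DM1-DM2d libraries, against 16.6 and 17.9 CPM in Col-0 12 DAS libraries. PCNA1 (AT1G07370, chromosome 1, 2263037 to 2264553), encoding the clamp, stood at 7.25, 6.68 and 6.36 CPM in DM1-DM2d and at 18.5 and 20.0 CPM in Col-0. In both genes the groups were well apart. The licensing factor gene CDC6 (AT2G29680, chromosome 2, 12689171 to 12693121) had 1.64, 1.32 and 1.21 CPM in DM1-DM2d and 6.13 and 5.52 CPM in Col-0, and its partner CDT1A (AT2G31270, chromosome 2, 13328862 to 13331831) had 10.7, 7.69 and 9.23 CPM in DM1-DM2d and 21.1 and 19.0 CPM in Col-0. Of the other helicase subunits, MCM2 (AT1G44900) had 7.41, 7.49 and 6.38 CPM in DM1-DM2d and 18.5 and 19.4 CPM in Col-0, and MCM5 (AT2G07690), with the smallest change of the 6, had 12.4, 11.8 and 14.1 CPM in DM1-DM2d and 29.9 and 28.1 CPM in Col-0. MCM3 (AT5G46280) changed by -1.70 ± 0.15 and MCM4 (AT2G16440) by -1.55 ± 0.12, and no helicase gene had overlapping groups. PCNA2 (AT2G29570), the other clamp gene, had 6.98, 5.54 and 6.07 CPM in DM1-DM2d and 15.7 and 15.2 CPM in Col-0.

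Of the mitotic genes 18 of 19 fell, each of them at least 2-fold. All 9 CYCB genes, the B-type cyclins that act from G2 into mitosis, fell, with log2 fold changes from -3.80 (CYCB1;2) to -2.50 (CYCB2;3). CYCB1;2 (AT5G06150) had 2.30, 1.45 and 1.89 CPM in DM1-DM2d libraries and 27.8 and 24.5 CPM in Col-0 12 DAS libraries (-3.80 ± 0.24, adjusted p = 2.27e-10, edgeR). KNOLLE (AT1G08560, chromosome 1, 2709525 to 2711000 in TAIR10.1), the cytokinesis syntaxin, had 1.79, 1.57 and 1.85 CPM in DM1-DM2d and 24.0 and 20.6 CPM in Col-0 (-3.68 ± 0.32). CYCA1;1 had the lowest log2 fold change of the class, with 0.612, 0.620 and 1.14 CPM in DM1-DM2d and 11.8 and 12.5 CPM in Col-0 (-3.94 ± 0.33). In none of these 3 genes did a DM1-DM2d library come near a Col-0 library. The CDKB kinases ranged from -3.45 (CDKB1;2) to -1.31 (CDKB1;1). CYCA2;2 (AT5G11300) was the exception, with 4.39, 3.36 and 3.70 CPM in DM1-DM2d and 3.86 and 3.93 CPM in Col-0, overlapping levels (-0.03 ± 0.18).

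**Figure D2:**
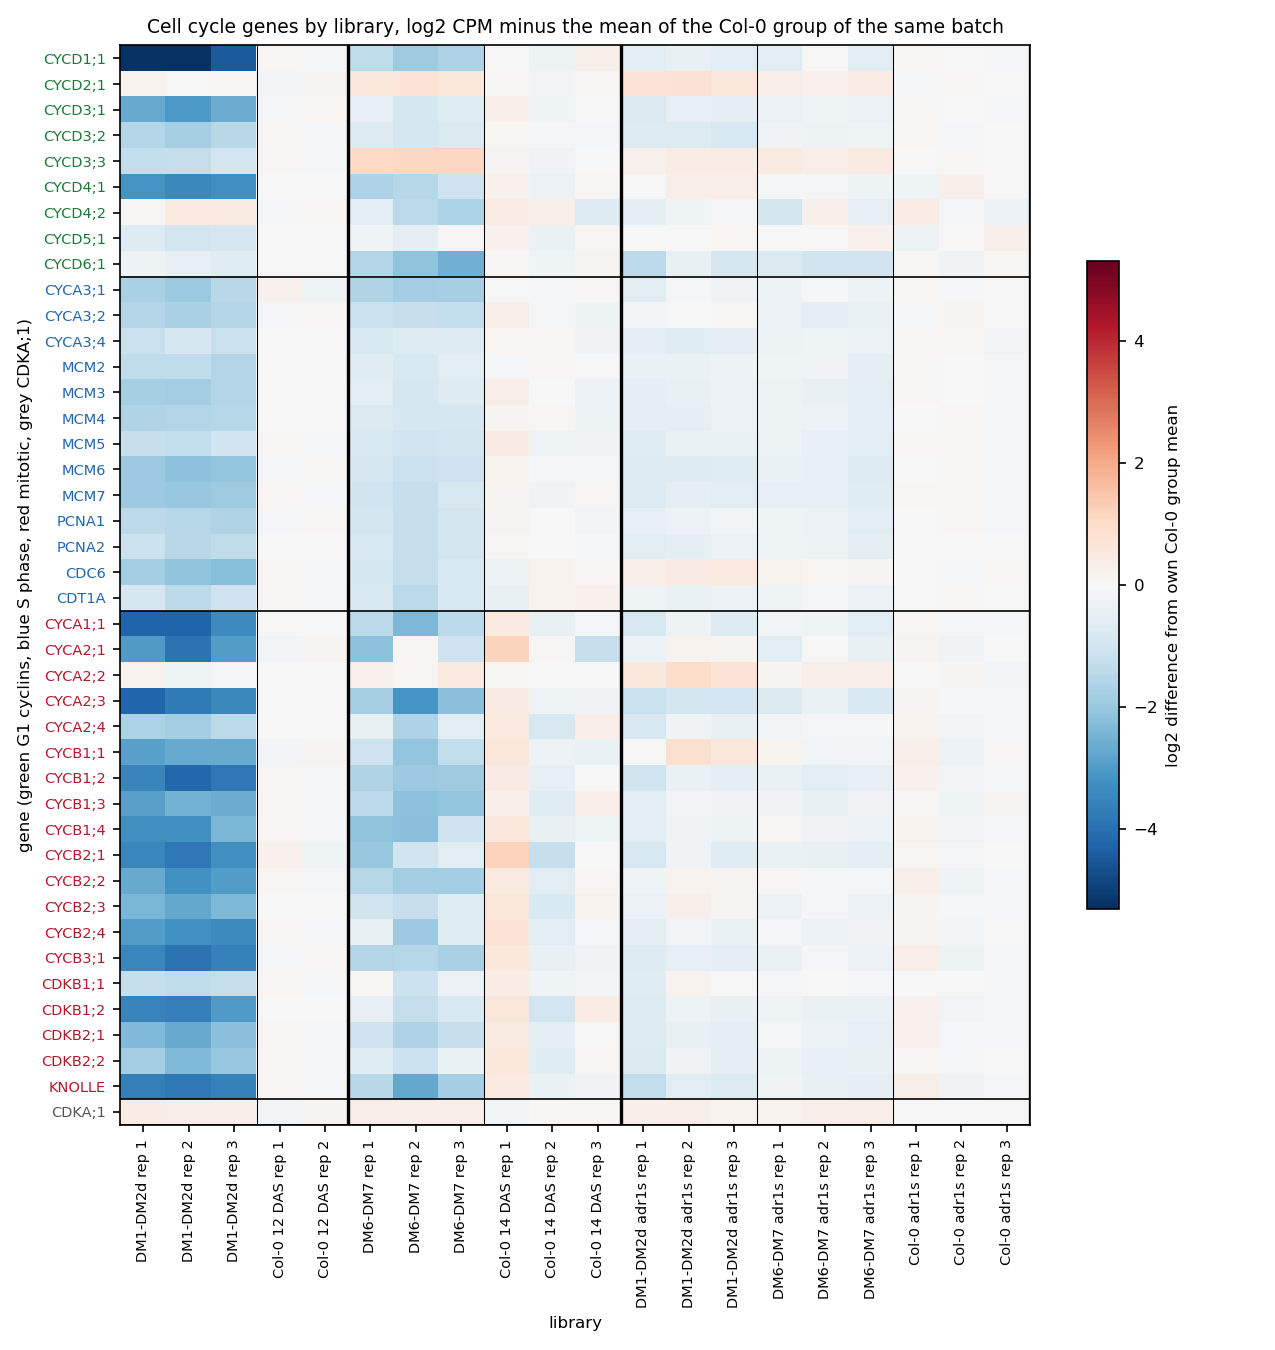
Log2 CPM of 42 genes (rows, in cycle order, without the gene that had 0 counts in 6 libraries of the DM lines) in the 20 libraries (columns), minus the mean of the Col-0 group of the same batch, with blue lower and red higher. DM1-DM2d libraries are the darkest blue, in mitotic rows above all, DM6-DM7 libraries are paler, and the adr1s libraries are near white except for a few rows.

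Markers of dividing tissue moved with these genes, and in bulk tissue fewer dividing cells and less RNA per cell cannot be told apart. The 4 meristem and primordia markers summed to 0.69 to 1.33 CPM in DM1-DM2d, against 10.4 to 10.5 CPM in Col-0 12 DAS. ANT, a primordium growth gene, carried most of that sum in Col-0, the stem cell genes CLV3 and WUS were at or near 0 in both groups, and 2 of the 4 fell. The 5 stomatal lineage markers summed to 14.9 to 17.7 CPM in DM1-DM2d and 61.0 to 61.7 CPM in Col-0, with 4 lower and FAMA higher (BASL at 0 in every DM1-DM2d library). The 4 leaf mesophyll markers also fell, to sums of 1149 to 1381 CPM in DM1-DM2d against 19650 to 21542 CPM in Col-0, while the 4 immune activation markers all rose. The immune activation sums were 24704 to 25767 CPM in DM1-DM2d, against 107 and 22.4 CPM in Col-0 12 DAS replicates 1 and 2. What part these markers had in the cell cycle values was not tested.

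In DM6-DM7 shoots most of the set was again lower than in Col-0 shoots of 14 DAS, by smaller folds. By the same edgeR test 36 of 43 members fell, 3 rose and 4 did not pass, against 29.7% of all genes tested that fell and 35% that rose. The median log2 fold change was -1.06 over the members and 0.06 over all genes. At least 2-fold lower were 25 members, against 18% of all genes, and libraries did not overlap in 28 lower members, against 26.8% of all genes. Class medians were -1.02 for G1 cyclins, -1.02 for S phase genes and -1.48 for mitotic genes. Leaving out each library of these groups gave 31 to 37 lower members, beside 6588 to 7690 of at least 23254 genes. With only the groups compared 7 members no longer passed, in a fit where 5584 of 21024 genes fell and 5642 rose.

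Of the G1 cyclins 7 fell and 2 rose. CYCD1;1 had 6.97, 4.84 and 5.69 CPM in DM6-DM7 libraries, against 18.2, 14.6 and 21.5 CPM in Col-0 14 DAS libraries (-1.63 ± 0.20). CYCD6;1, the cyclin known for formative divisions of the root ground tissue, had 1.18, 0.801 and 0.597 CPM in DM6-DM7 and 3.68, 3.07 and 3.99 CPM in Col-0 (-2.06 ± 0.26, adjusted p = 2.51e-06, edgeR). Both genes were lower in every DM6-DM7 library than in any Col-0 library. CYCD3;3 (AT3G50070), a G1 cyclin of the CYCD3 group that delays the switch to endoreduplication, went the other way, with 23.0, 23.2 and 23.6 CPM in DM6-DM7 and 12.2, 9.62 and 11.2 CPM in Col-0 (1.08 ± 0.097). CYCD2;1 also rose in DM6-DM7 (25.6, 29.1 and 25.6 CPM against 18.2, 15.9 and 18.4 CPM in Col-0).

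All 13 S phase genes fell, with log2 fold changes from -1.76 (CYCA3;1) to -0.70 (MCM2), and in each of them the DM6-DM7 libraries lay below the Col-0 libraries. CYCA3;1, an S phase A-type cyclin, stood at 1.38, 1.17 and 1.22 CPM in DM6-DM7 libraries, against 4.37, 3.97 and 4.43 CPM in Col-0 14 DAS libraries. MCM6 stood at 6.01, 5.05 and 5.26 CPM in DM6-DM7 and at 12.8, 10.3 and 10.5 CPM in Col-0 (-1.04 ± 0.11). MCM7 stood at 11.9, 10.8 and 13.6 CPM in DM6-DM7, against 27.3, 21.8 and 25.7 CPM in Col-0 (-1.04 ± 0.11). PCNA1 stood at 8.25, 7.02 and 8.18 CPM in DM6-DM7, against 18.1, 16.1 and 14.9 CPM in Col-0. Both licensing genes fell, with CDC6 at 1.83, 1.43 and 1.99 CPM in DM6-DM7, against 2.87, 3.95 and 3.79 CPM in Col-0, and CDT1A at -1.06 ± 0.17 on the log2 scale. Of the mitotic genes 16 of 19 fell, among them all 9 CYCB genes (-1.94 to -0.97). CYCA2;3, a partner of CDKB1 that restrains endoreduplication, had the lowest value, with 4.51, 1.75 and 3.30 CPM in DM6-DM7 and 20.8, 12.9 and 13.3 CPM in Col-0 (-2.30 ± 0.27). KNOLLE had 4.92, 2.09 and 3.97 CPM in DM6-DM7 and 19.6, 11.0 and 12.2 CPM in Col-0 (-1.97 ± 0.28). CDKB1;1 (-0.41 ± 0.25), CYCA2;1 (-1.15 ± 0.57) and CYCA2;2 (0.30 ± 0.17) did not pass the threshold.

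The Col-0 14 DAS libraries differed among themselves in the mitotic genes. Their class medians stood 0.52 above, 0.45 below and 0.04 below the group mean on the log2 scale in replicates 1, 2 and 3, an SD of 0.49, whereas the SD was 0.07 among Col-0 12 DAS libraries and 0.15 among Col-0 adr1s libraries. The summed mitotic CPM was 47.9, 29.0 and 45.3 in DM6-DM7, against 152, 79.2 and 103 in the Col-0 14 DAS group, so that the groups did not overlap even so. The immune marker PR1 stood at 17.1, 51.1 and 31.3 CPM in these 3 Col-0 replicates, and their part in the mitotic values was not tested. Without Col-0 14 DAS replicate 1, CDKB1;2, CDKB2;2, CYCA2;4, CYCB2;1 and CYCB2;4 no longer passed the threshold. Among markers, the stomatal lineage sum was 12.9 to 17.5 CPM in DM6-DM7, against 47.2 to 54.6 CPM in the Col-0 14 DAS group, with 5 of 5 lower. The meristem and primordia sum was 6.86 to 13.3 CPM in DM6-DM7 and 11.4 to 18.9 CPM in Col-0, with CLV3 and WUS at or near 0, and these ranges overlapped. By CPM, ANT was lower in every DM6-DM7 library than in any Col-0 14 DAS library, while the levels of STM overlapped. All 4 leaf mesophyll markers fell, with sums of 20247 to 24366 CPM in DM6-DM7, against 65748 to 77225 CPM in Col-0. All 4 immune activation markers rose, with sums of 8423 to 9391 CPM in DM6-DM7, against 42.8 to 130 CPM in Col-0. The part of these markers in the cell cycle values was not tested.

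**Figure D3:**
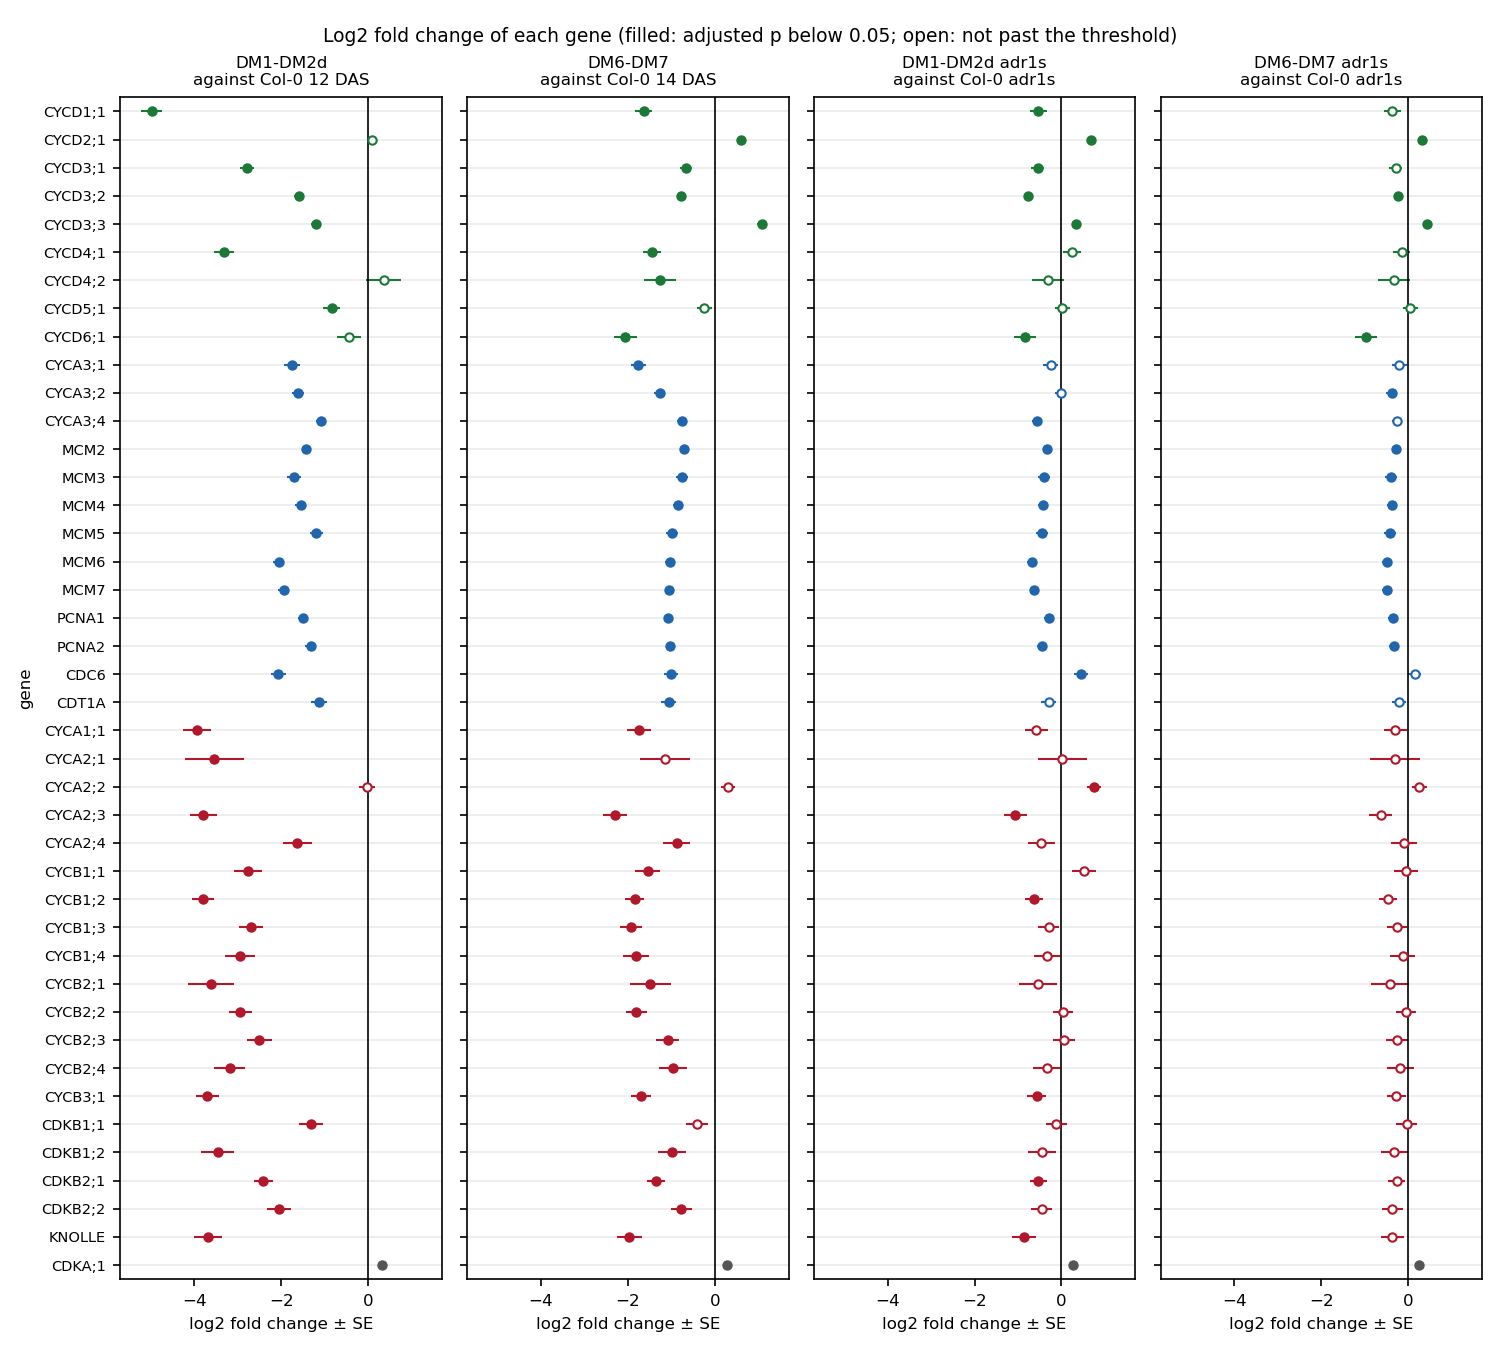
Log2 fold change with its SE for 42 genes (rows) in the 4 comparisons of a DM line with the Col-0 group of its batch. Filled points passed an adjusted p of 0.05 by edgeR, open points did not. Mitotic genes (red) lie around a median of -2.95 in the DM1-DM2d panel, -1.48 in the DM6-DM7 panel, -0.45 in the DM1-DM2d adr1s panel and -0.27 in the DM6-DM7 adr1s panel. The 6 MCM genes, among the S phase genes in blue, lie below 0 in all 4 panels, around a median of -1.63 for DM1-DM2d, -0.92 for DM6-DM7, -0.44 for DM1-DM2d adr1s and -0.41 for DM6-DM7 adr1s.

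Without the ADR1 helpers the set stood much closer to its control. In DM1-DM2d adr1s, 18 of 43 members fell, 5 rose and 20 did not pass against Col-0 adr1s, beside 18.8% of all genes that fell and 23.9% that rose (edgeR, as above), and the members' median was -0.41 against 0.03 over all genes. In DM6-DM7 adr1s, 11 fell, 3 rose and 29 did not pass, beside 12.6% of all genes that fell and 18.6% that rose, with a median of -0.28 against 0.02. The higher counts in both lines are no larger a share than among all genes. The counts rest on single libraries to a degree: 10 members fell in DM1-DM2d adr1s without Col-0 adr1s replicate 1, beside 3705 of 23325 genes. In DM6-DM7 adr1s 4 of 43 fell without DM6-DM7 adr1s replicate 3, beside 2042 of 23314 genes. Those 4 are a share near that of all genes. In that line 6 fell without Col-0 adr1s replicate 1, beside 2215 of 23325 genes. Without Col-0 adr1s replicate 2 it was 7, beside 2421 of 23326 genes. Both lines share the Col-0 adr1s libraries, so the comparisons are not independent of each other.

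In each adr1s line 9 of 13 S phase genes fell, among them all 6 MCM genes. Of the mitotic genes 5 of 19 fell in DM1-DM2d adr1s and 0 of 19 in DM6-DM7 adr1s by edgeR, where 2 were lower at an unadjusted p below 0.05 and 1 by DESeq2. The MCM median was -0.44 in DM1-DM2d adr1s, and DM6-DM7 adr1s had -0.41. MCM6 had 14.0, 14.1 and 14.6 CPM in DM1-DM2d adr1s and 17.8, 16.9 and 14.2 CPM in DM6-DM7 adr1s, against 23.0, 24.3 and 21.5 CPM in Col-0 adr1s (-0.69 ± 0.11 for the DM1-DM2d pair, -0.49 ± 0.11 for the DM6-DM7 pair). MCM7 had 29.1, 33.8 and 32.0 CPM in DM1-DM2d adr1s and 36.4, 36.0 and 31.6 CPM in DM6-DM7 adr1s, against 51.5, 50.2 and 44.7 CPM in Col-0 adr1s. Every DM library lay below every control library in both genes. PCNA1, with 23.6, 25.5 and 28.2 CPM in DM1-DM2d adr1s and 26.9, 25.8 and 21.6 CPM in DM6-DM7 adr1s, against 32.0, 32.5 and 30.2 CPM in Col-0 adr1s, fell in both lines as well, as did PCNA2. CDT1A did not pass in either line, with a log2 fold change of -0.30 ± 0.16 for the DM1-DM2d pair and -0.20 ± 0.16 for the DM6-DM7 pair. The mitotic medians were -0.45 in DM1-DM2d adr1s, with -0.27 for DM6-DM7 adr1s, but with SEs of 0.17 to 0.57 per gene, against 0.09 to 0.14 for the MCM genes. These SEs come from the fit of all 20 libraries, in which the groups share 1 estimate of spread per gene. Between replicates the mitotic class median had an SD of 0.08 in DM6-DM7 adr1s, 0.25 in DM1-DM2d adr1s and 0.15 in Col-0 adr1s. That SD was 0.49 in Col-0 14 DAS. With only the groups compared, 7 more members of any class passed in DM6-DM7 adr1s and 8 in DM1-DM2d adr1s. In those fits 4842 of 20338 genes fell and 4796 rose, and 6047 of 20518 fell and 6334 rose. A difference between the classes in these lines was not tested. In DM6-DM7 adr1s all DM libraries lay below all controls in 7 of 19 mitotic genes, beside 24.6% of all genes.

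The mitotic genes that fell in DM1-DM2d adr1s were CYCA2;3 (-1.07 ± 0.26), KNOLLE (-0.86 ± 0.27), CYCB1;2 (-0.63 ± 0.21), CYCB3;1 (-0.57 ± 0.22) and CDKB2;1 (-0.53 ± 0.20). CYCA2;3 had 9.70, 11.1 and 10.9 CPM in DM1-DM2d adr1s, against 24.1, 21.4 and 20.9 CPM in Col-0 adr1s. KNOLLE had 9.57, 15.7 and 14.1 CPM in DM1-DM2d adr1s and 29.3, 20.4 and 21.6 CPM in Col-0 adr1s. The groups did not overlap in these 2 genes, with replicate 1 of DM1-DM2d adr1s the lowest. CYCB1;1, which is also known to be induced by DNA damage, stood at 7.79, 13.9 and 11.6 CPM in DM1-DM2d adr1s and at 9.16, 6.13 and 7.88 CPM in Col-0 adr1s, overlapping levels (0.52 ± 0.28, not past the threshold). CDC6 stood at 6.44, 6.81 and 7.23 CPM in DM1-DM2d adr1s and at 5.10, 4.71 and 5.19 CPM in Col-0 adr1s (0.45 ± 0.16, adjusted p = 0.0284, edgeR), but it did not pass when any library of these 2 groups was left out. Among markers, the stomatal lineage sum was 35.7 to 37.9 CPM in DM1-DM2d adr1s (5 of 5 lower) and 53.7 to 66.1 CPM in DM6-DM7 adr1s (1 of 5 lower), against 72.5 to 84.7 CPM in Col-0 adr1s. The meristem and primordia sum was 24.5 to 31.6 CPM in DM1-DM2d adr1s and 27.6 to 30.8 CPM in DM6-DM7 adr1s, against 29.3 to 35.0 CPM in Col-0 adr1s, overlapping ranges. In DM1-DM2d adr1s that sum joined opposite directions. By CPM, every DM1-DM2d adr1s library lay above every Col-0 adr1s library in STM and below every one in ANT. In DM6-DM7 adr1s the levels of both genes overlapped those of Col-0 adr1s. The leaf mesophyll sum was 20716 to 26121 CPM in DM1-DM2d adr1s (4 of 4 lower) and 22920 to 26917 CPM in DM6-DM7 adr1s (3 of 4 lower), against 41879 to 46371 CPM in Col-0 adr1s. The immune markers were still raised, with sums of 632 to 1153 CPM in DM1-DM2d adr1s and 1012 to 1614 CPM in DM6-DM7 adr1s, against 21.4 to 22.4 CPM in Col-0 adr1s, and all 4 rose in each line. The part of these differences in the cell cycle values was not tested.

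**Figure D4:**
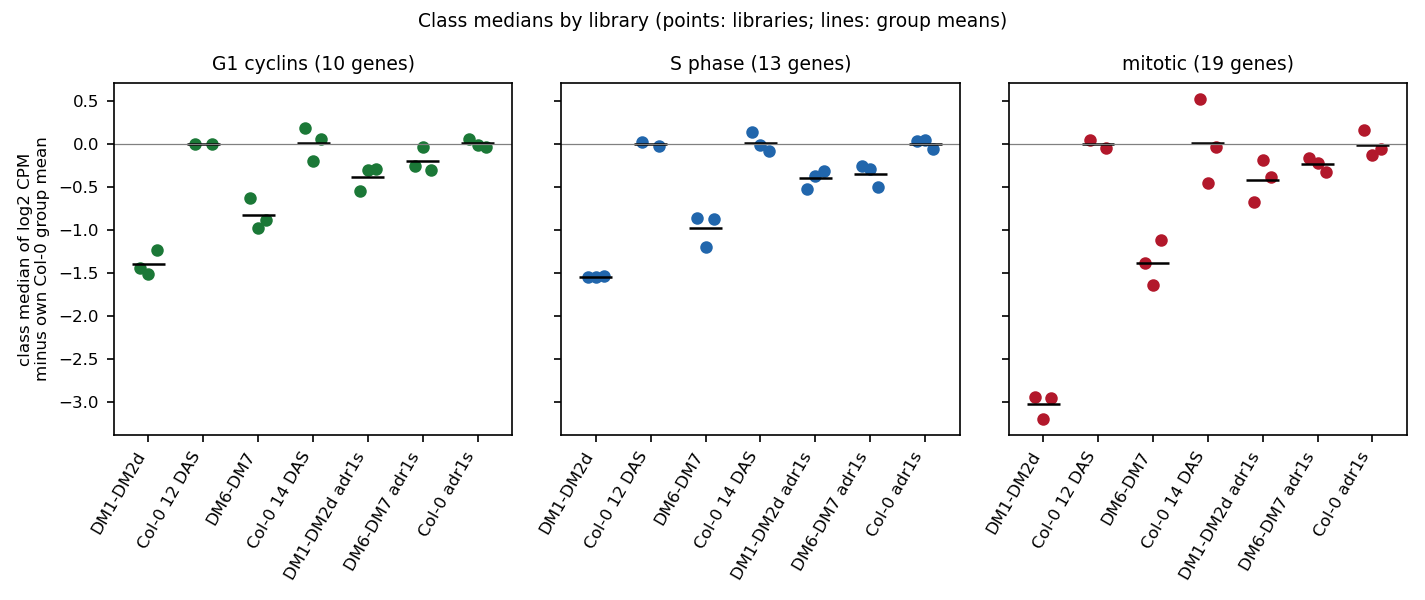
Median of each class (G1 cyclins, S phase, mitotic) in each library, as log2 CPM minus the mean of the Col-0 group of the same batch, with points for libraries and lines for group means. DM1-DM2d libraries lie between -3.20 and -2.94 for mitotic genes, and the adr1s lines lie between -0.68 and -0.17.

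The difference between the effect of a DM pair with the ADR1 genes intact and its effect in adr1s was tested directly. For DM1-DM2d 39 of 43 members differed, beside 58.5% of all genes, of which 39 were lower in the intact background relative to adr1s and 0 higher, beside 32.5% of all genes lower and 26% higher (edgeR, Benjamini-Hochberg), with a median difference of -1.60 against -0.16 over all genes. The count of higher members was also 0 at an unadjusted p below 0.05 and 0 by DESeq2. All 13 S phase genes and all 19 mitotic genes were among the 39, with median differences of -1.21 and -2.82. For DM6-DM7 27 members differed, beside 31.2% of all genes, with 26 lower and 1 higher, beside 16.3% and 14.9% of all genes, with a median of -0.83 against -0.0046. By class these were 4 of 10 G1 cyclins lower and 1 higher, 12 of 13 S phase genes and 10 of 19 mitotic genes lower. KNOLLE differed by -2.82 ± 0.41 for DM1-DM2d and by -1.60 ± 0.38 for DM6-DM7, and CYCB1;2 by -3.17 ± 0.32 for DM1-DM2d and by -1.38 ± 0.30 for DM6-DM7. Intact and adr1s groups lie in different batches, so these differences cannot be told apart from batch and age.

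**Figure D5:**
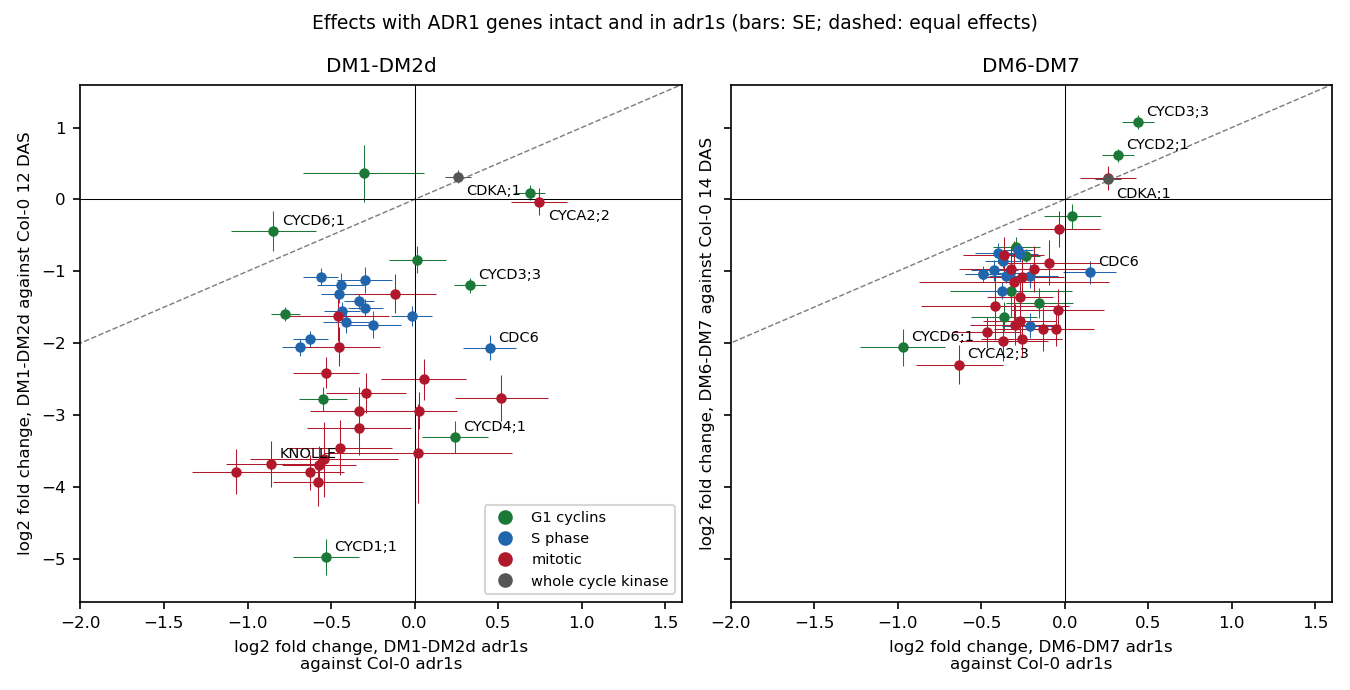
Log2 fold change of each gene with the ADR1 genes intact (y axis) and in adr1s (x axis), with SE bars, for DM1-DM2d (left) and DM6-DM7 (right). The dashed line marks equal effects and the axes differ in scale. Nearly all points lie below the line, while CDKA;1 lies on or near it and CYCD3;3 is below it on the left and above it on the right.

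Both intact lines shared 34 members that fell, of 38 in DM1-DM2d and 36 in DM6-DM7. With most members lower in each line, a large overlap was bound to arise, so the count does not measure agreement between the lines. The share of all genes lower in both lines was not determined. Of the 4 members that passed in DM1-DM2d and not as lower in DM6-DM7, the effects differed by the edgeR test in CYCD3;3 and CYCA2;1 (-2.38 ± 0.88). They did not pass in CDKB1;1 (-0.90 ± 0.37) and CYCD5;1 (-0.60 ± 0.25). CYCD4;2 and CYCD6;1 passed as lower in DM6-DM7 and not in DM1-DM2d. The effects of the 2 DM pairs also differed, in comparisons that share neither batch nor age. In all, 30 members differed, beside 49.3% of all genes. The DM1-DM2d effect was lower than the DM6-DM7 effect in 28 members and higher in 2, beside 27.2% and 22% of all genes, with a median difference of -1.02 against -0.08 over all genes. Mitotic genes made up 15 of the 28 (median -1.42) and S phase genes 7 (median -0.44). In adr1s, where both lines are in the same batch, 1 member was lower in DM1-DM2d adr1s than in DM6-DM7 adr1s and 1 was higher, beside 3.49% and 5.42% of all genes. The lower member was CYCD3;2, with 34.6, 35.2 and 31.6 CPM in DM1-DM2d adr1s and 50.7, 47.5 and 49.3 CPM in DM6-DM7 adr1s (-0.54 ± 0.086). The higher member was CYCD2;1 (0.37 ± 0.092), whose call ended without DM1-DM2d adr1s replicate 1 or 2 or DM6-DM7 adr1s replicate 1 or 2.

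Several members stood apart from the rest. CYCD3;3 had opposite changes in the 2 intact lines: it fell in DM1-DM2d, with 4.57, 4.75 and 5.70 CPM against 12.0 and 11.0 CPM in Col-0 12 DAS (-1.20 ± 0.11), and rose in DM6-DM7, a difference of effects of -2.27 ± 0.15 (adjusted p = 2.1e-09, edgeR). In adr1s it rose in both lines (0.33 ± 0.096 with the DM1-DM2d pair, 0.44 ± 0.096 with the DM6-DM7 pair), the rise in DM1-DM2d adr1s not passing without that group's replicate 2 or 3. CYCD6;1 and CYCD4;2 had the reverse contrast: the DM1-DM2d effect exceeded the DM6-DM7 effect by 1.62 ± 0.38 and 1.63 ± 0.55. CYCD4;2 had 2.54, 3.45 and 3.42 CPM in DM1-DM2d, against 2.29 and 2.58 CPM in Col-0 12 DAS. It had 0.959, 0.513 and 0.428 CPM in DM6-DM7, against 1.91, 1.77 and 0.881 CPM in Col-0 14 DAS. The DM6-DM7 and Col-0 14 DAS libraries of CYCD4;2 overlapped, and its difference between lines did not pass without Col-0 12 DAS replicate 1.

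CYCD6;1 fell in both adr1s lines, with 1.42, 2.81 and 1.99 CPM in DM1-DM2d adr1s and 2.18, 1.76 and 1.76 CPM in DM6-DM7 adr1s, against 3.86, 3.28 and 4.00 CPM in Col-0 adr1s. CYCA2;2 rose in DM1-DM2d adr1s (3.40, 4.53 and 3.83 CPM against 2.35, 2.57 and 2.09 CPM in Col-0 adr1s, 0.75 ± 0.17). It was the mitotic member with no lower call in any of the 4 lines. CYCD7;1, a cyclin of the guard mother cell, had 0 counts in all 3 DM1-DM2d libraries and in all 3 DM6-DM7 libraries. The Col-0 12 DAS libraries had 10 and 2 counts, 12 in all. The Col-0 14 DAS libraries had 4, 6 and 0 counts, 10 in all, so that replicate 3 matched the DM6-DM7 libraries. With a floor of 3 counts over the DM group, the pooled counts gave a bound of 8.2-fold lower in DM1-DM2d and 3.9-fold lower in DM6-DM7. That bound leaves out the error of the few Col-0 counts, so the true difference may be smaller. Across the libraries 64.9 to 78% of counts below 20 were even, and whether reads or read pairs were counted was not given in the sources used here. If both reads of a pair were counted, the floor of 3 counts and the Col-0 counts stand for fewer fragments. The call ended without Col-0 12 DAS replicate 1 in DM1-DM2d and without Col-0 14 DAS replicate 2 in DM6-DM7. With CYCD7;1 at that bound the G1 medians were -1.40 in DM1-DM2d and -1.02 in DM6-DM7.

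CDKA;1 (AT3G48750), the kinase that D- and A-type cyclins share, was the member with a small rise in each line. It stood at 54.9, 51.5 and 50.4 CPM in DM1-DM2d and 38.2 and 45.8 CPM in Col-0 12 DAS (0.32 ± 0.087), and at 55.4, 55.1 and 53.4 CPM in DM6-DM7, against 40.7, 46.6 and 47.5 CPM in Col-0 14 DAS (0.28 ± 0.077). In adr1s it stood at 41.7, 42.4 and 38.5 CPM in DM1-DM2d adr1s and 39.0, 40.7 and 43.2 CPM in DM6-DM7 adr1s, against 34.3, 35.0 and 33.4 CPM in Col-0 adr1s (0.26 ± 0.078 each). Every DM library lay above every library of its control. Under upper-quartile scaling CDKA;1 did not pass in DM1-DM2d (0.0015), DM6-DM7 (0.07) or DM6-DM7 adr1s (0.21). The call in DM1-DM2d ended without Col-0 12 DAS replicate 1 (0.14), that in DM6-DM7 without any 1 of the 3 DM6-DM7 libraries (0.17 to 0.19) and that in DM1-DM2d adr1s without its replicate 1 or 2 (0.20 and 0.19). The call in DM6-DM7 adr1s ended without its replicate 2 (0.26) or 3 (0.22) or Col-0 adr1s replicate 3 (0.24).

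Per kilobase of exon the intact DM lines had a cell cycle profile led by CDKA;1 and D-type cyclins. CDKA;1 stood at 34.9 ± 1.6 CPM per kb in DM1-DM2d and 28.0 ± 3.6 in Col-0 12 DAS, and at 36.4 ± 0.71 in DM6-DM7, against 30.0 ± 2.5 in Col-0 14 DAS (SD, n = 3, 2, 3 and 3 libraries). In DM1-DM2d CYCD2;1 followed at 13.4 ± 0.88 CPM per kb, ahead of CYCD3;2 at 6.06 ± 0.66 and PCNA1 at 5.99 ± 0.40, which did not differ beyond their spread. In Col-0 12 DAS the order after CDKA;1 was CYCD3;2 at 18.3 ± 0.90, PCNA1 at 17.0 ± 0.94, KNOLLE at 16.1 ± 1.7 and CDKB2;1 at 16.0 ± 1.0, neighbours within each other's spread. KNOLLE stood at 1.25 ± 0.11 CPM per kb in DM1-DM2d, below CYCA2;2 at 1.99 ± 0.27, whereas CYCA2;2 stood at 2.03 ± 0.025 in Col-0 12 DAS, far below KNOLLE there. In Col-0 14 DAS the highest member was CYCD3;2 at 38.3 ± 2.5, against 22.3 ± 1.8 in DM6-DM7.

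Within the mitotic class the 12 genes with an MSA core around the start had a median log2 fold change of -3.24 (range -3.94 to -2.05) in DM1-DM2d, against -2.41 (range -3.79 to -0.03) in the 7 without. In DM6-DM7 the medians were -1.72 with the core and -0.97 without. The order was the other way in DM1-DM2d adr1s, with -0.39 with the core and -0.45 without, and the medians were -0.28 and -0.18 in DM6-DM7 adr1s. The ranges overlap in all 4 lines, and in DM1-DM2d CYCA2;3, without a core in this window, was as low as CYCB1;2 with its 5 copies. In the S phase class the 5 genes with an E2F word and the 8 without had medians of -1.55 and -1.56 in DM1-DM2d. The medians with and without the word were -0.85 and -1.05 in DM6-DM7. They were -0.43 and -0.30 in DM1-DM2d adr1s, and -0.40 and -0.30 in DM6-DM7 adr1s.

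Other genes of the same machinery were read from a list of 78 genes, of which 77 were tested. In DM1-DM2d 50 fell and 12 rose, and in DM6-DM7 51 fell and 10 rose, whereas 14 fell and 8 rose in DM1-DM2d adr1s, and DM6-DM7 adr1s had 7 lower and 3 higher. Over all genes tested 36.4% fell and 36.6% rose in DM1-DM2d, 29.7% and 35% in DM6-DM7, 18.8% and 23.9% in DM1-DM2d adr1s, and 12.6% and 18.6% in DM6-DM7 adr1s, so that the counts in the adr1s lines were no larger a share than among all genes. Of 20 mitosis and cytokinesis genes 18 fell in DM1-DM2d and 19 in DM6-DM7. In the adr1s background 6 fell with DM1-DM2d and 0 with DM6-DM7 by edgeR, and in DM6-DM7 adr1s also 0 at an unadjusted p below 0.05. MAP65-3, a microtubule bundler of the division plate, had 2.22, 1.51 and 1.44 CPM in DM1-DM2d and 21.1 and 22.5 CPM in Col-0 12 DAS (-3.66 ± 0.25), and changed by -1.83 ± 0.22 in DM6-DM7. CENH3, the centromeric histone, rose in DM1-DM2d (9.93, 10.4 and 10.1 CPM against 4.14 and 4.55 CPM in Col-0). Of 18 replication genes 15 fell and 1 rose in DM1-DM2d and 14 fell in DM6-DM7, with TSO2, a subunit of ribonucleotide reductase, at -1.90 ± 0.17 in DM1-DM2d and -1.71 ± 0.15 in DM6-DM7. The replication gene that rose in DM1-DM2d was ORC3, of the origin recognition complex, with 24.3, 26.1 and 24.2 CPM against 6.05 and 5.71 CPM in Col-0 12 DAS (2.08 ± 0.20).

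Regulators did not move as a block. SCL28, a GRAS factor that acts with MYB3R in mitotic gene control, had 0.153, 0.0702 and 0.183 CPM in DM1-DM2d and 3.91 and 4.39 CPM in Col-0 12 DAS (-4.92 ± 0.51), and fell by 1.82 in DM6-DM7. MYB3R1, MYB3R3 and MYB3R5 rose by 0.56 to 0.67 in DM1-DM2d. MYB3R4, the remaining MYB3R gene of the list, went the other way. It had 316, 248 and 373 counts in DM1-DM2d libraries, against 949 and 739 counts in Col-0 12 DAS libraries. These counts are not scaled, and no test of MYB3R4 is given here. Library totals were 93549230 to 104370141 counts in DM1-DM2d and 86880565 to 89792404 in Col-0 12 DAS. E2FC, an E2F factor known as a repressor of division genes, had 28.7, 25.8 and 30.2 CPM in DM1-DM2d and 9.98 and 9.74 CPM in Col-0 (1.52 ± 0.11), and rose by 0.43 in DM6-DM7. Of 12 tested KRP and SMR genes, inhibitors of CDK complexes, 4 fell and 2 rose in DM1-DM2d and 3 fell and 4 rose in DM6-DM7, shares near or below the 36.4% lower and 36.6% higher of all genes in DM1-DM2d and the 29.7% lower and 35% higher in DM6-DM7. KRP6 rose in DM1-DM2d to 60.6, 59.5 and 63.1 CPM, against 6.61 and 7.48 CPM in Col-0 12 DAS (3.12 ± 0.13), and KRP2 fell in DM1-DM2d (-0.92 ± 0.20) but rose in DM6-DM7 (1.23 ± 0.17). SMR7, known to respond to DNA damage and oxidative stress, had 2.96, 4.10 and 3.87 CPM in DM1-DM2d adr1s, 0.0957, 0.162 and 0.317 CPM in DM6-DM7 adr1s and 0.130, 0.423 and 0.292 CPM in Col-0 adr1s. It was higher in DM1-DM2d adr1s than in DM6-DM7 adr1s by 4.24 ± 0.75 (adjusted p = 0.00213, edgeR).

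Of the 43 members 14 overlap another annotated gene, 13 of them one on the opposite strand (KNOLLE, MCM7 and CDKB2;1 among them). The libraries were made strand-specific, but whether counting used strand was not given in the sources used here, so reads of such pairs may not be told apart. CYCB2;3 shared 7.19% of its 100-base stretches with other annotated genes and CYCB1;2 0.07%, and the other members shared 0%.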

How the data were processed

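RNA-seq of *Arabidopsis* shoots (20 libraries, 7 groups) was read from the raw gene counts deposited by the authors. Per the submitters' processing notes, the tools named for the series include fastp 0.23.2, HISAT2 2.2.1 and featureCounts 2.0.1, with the TAIR10 genome. The counting options are not given in the sources used here. Libraries summed to 48360933 to 127276992 counts.

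Genes were kept by edgeR's expression filter (minimum count 10), which left 23349 of 32833. Libraries were scaled by TMM, and one fit with a term per group gave all contrasts with edgeR 4.0.16 (quasi-likelihood, robust; limma 3.58.1, R 4.3.3). P-values were Benjamini-Hochberg adjusted over all genes tested, with a threshold of 0.05. SEs were derived from each log2 fold change and its F statistic. The titles call the replicates biological without saying how plants were pooled, so p-values measure the spread between these samples, which may be partly technical. DESeq2 1.42.0, other scalings and filters, and leaving out each library were alternatives. The code was tested on simulated data with 2-fold and 4-fold changes.

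The 43 members and all gene lists were chosen with earlier results of these data known, and the promoter words after the lists. All members could be named. Of each list of other cell cycle genes at most 3 called genes were named per comparison by rank of adjusted p in the commoner direction. In the opposite direction 1 could be named. MYB3R4 was added so that every MYB3R gene of its list is given. Promoters came from RefSeq TAIR10.1. The promoter of 1 member is not reported here. Same-numbered replicates were checked for pairing and did not deviate together.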

Additional observations from a re-analysis of the deposited data

Results flagged for a closer look

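The effect of a DM pair differed between backgrounds or lines for many members, by edgeR's test of the difference with Benjamini-Hochberg adjustment. Of 43 members, 39 differed between DM1-DM2d and DM1-DM2d adr1s, 27 between DM6-DM7 and DM6-DM7 adr1s, and 30 between DM1-DM2d and DM6-DM7. Of all genes tested 58.5%, 31.2% and 49.3% differed in these 3 comparisons. These groups were in different batches, which cannot be told apart from the effects.

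CYCD3;3 and CDC6 had changes past the threshold in opposite directions. CYCD3;3 fell in DM1-DM2d and rose in DM1-DM2d adr1s, a difference of -1.53, and it fell in DM1-DM2d and rose in DM6-DM7, a difference of -2.27. CDC6 fell in DM1-DM2d and rose in DM1-DM2d adr1s, a difference of -2.51, where the rise did not pass without any 1 of its 6 libraries.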

How the results depend on the processing

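Of 5792 values of single members under the alternatives, 5520 kept their side of the threshold, 197 no longer passed, 75 passed only in the alternative and 0 that passed changed sign. Of the 5520, 110 changed sign while past the threshold in neither fit. The S phase median in DM1-DM2d was -1.51 with RLE scaling and with DESeq2, -1.86 with upper-quartile scaling, and -1.62 with nuclear genes only and with only the groups compared. The G1 median there was -1.71 with upper-quartile scaling and -1.20 at a minimum count of 50, and the mitotic median -3.26 with upper-quartile scaling, where 0 members were higher. That scaling moved the median of all genes by -0.30 in DM1-DM2d and -0.18 in DM6-DM7. Between the adr1s lines, 4 members were called with only the groups compared (2 lower, 2 higher) and 4 by DESeq2 (3 higher), and 1 at an adjusted p below 0.01 (0 higher). Over all genes these 3 settings called 1357 lower and 2112 higher of 20593, 1278 and 1775 of 23349, and 228 and 547 of 23349. In none of them was the total of called members a larger share than among all genes. With only the groups compared 18 members fell in DM6-DM7 adr1s, beside 4842 of 20338 genes. At an adjusted p below 0.01, 4 were called in DM6-DM7 adr1s (3 lower, 1 higher). Over all 23349 genes 1762 were lower and 3037 higher there, so the members were no larger a share. At that threshold 12 were called in DM1-DM2d adr1s (9 lower, 3 higher), beside 3058 genes lower and 4264 higher. Likewise 1 was higher in DM1-DM2d than in DM6-DM7, beside 3782 genes. Same-numbered replicates correlated at -0.03 to 0.05. With the replicate block, 1 member was called between the adr1s lines and 0 were higher. Leaving out each library gave S phase medians of -1.61 to -1.55 and mitotic medians of -3.13 to -2.82 in DM1-DM2d, with 0 to 1 higher members, and 1 to 2 higher in DM1-DM2d than in DM6-DM7. It gave 14 to 21 called in DM1-DM2d adr1s (10 to 19 lower, 2 to 4 higher), 5 to 13 in DM6-DM7 adr1s (4 to 10 lower, 1 to 3 higher) and 1 to 2 between the adr1s lines (0 to 1 higher). Of at least 23301 genes tested in these fits, 3705 to 4379 were lower in DM1-DM2d adr1s and 2042 to 2636 in DM6-DM7 adr1s. Without Col-0 12 DAS replicate 1, 0 were higher in DM1-DM2d and 1 was higher in DM1-DM2d than in DM6-DM7. The cause of these shifts was not tested. With 2 Col-0 libraries at 12 DAS and low counts of CYCD7;1 and CYCA2;1, depth and replicate number limit the smallest changes that could be detected.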
